A study of Drosophila melanogaster with 30 samples.

Results

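This comparison set candidate silencers recovered from weakly green mesodermal cells against the same candidates recovered from non-mesodermal cells of Drosophila melanogaster embryos. It used 12 of the 30 libraries of the series, chosen by their labels: the 6 low-GFP CD2+ libraries and the 6 CD2- libraries of round 1, 1 of each from every one of 6 collection days. All 576 elements of the round 1 pool were considered, and 358 of them had enough reads to be tested.

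All groups of a day came from the same cross. The fathers carried random picks from the reporter pool and the mothers, kept with them in population cages, carried twi:CD2, so every embryo could carry a reporter from its father and the rat CD2 surface marker, driven by the promoter of twist, from its mother. Eggs were laid over 2.25 h and the embryos aged for 11 h at 18 °C. Dissociated cells were stained with a fluorescent antibody to rat CD2. CD2+ and CD2- cells were sorted as controls, and CD2+ cells with reduced GFP were sorted after them. The CD2- cells were not selected for GFP, so the contrast mixed tissue with GFP level, and those cannot be told apart within it. Days 1 to 3 formed experiment 1 and days 4 to 6 experiment 2. The 6 CD2+ libraries of the same days shared the estimate of the spread and are given beside the results. The labels do not say how many cells were sorted or how many insertions each cage held, so p-values measure the spread between collections.

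A silencer is a DNA element that lowers the transcription of a promoter it is linked to in a given tissue, the counterpart of an enhancer. In this assay each element was cloned beside a strong ubiquitous enhancer driving GFP, so a cell in which its element silences should be dim. The mesoderm is the germ layer of muscle, heart and fat body, specified in the fly by the transcription factor Twist. Silencing in flies often runs through corepressors such as Groucho and CtBP, which DNA-bound repressors recruit, or through Polycomb proteins, which deposit the methyl mark H3K27me3. The pool held elements named after a gene and a fragment of its regulatory DNA, elements named after CtBP or Groucho binding regions, elements named after combinations of chromatin marks, insulators, and pieces of Escherichia coli DNA as controls.

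The measurement was DNA, not RNA: inserts were amplified from genomic DNA of the sorted cells by nested PCR and counted. No expression markers were therefore present with which the cell labels could be checked, and an element's count could not separate the number of cells carrying it from the number of copies amplified. Each element was told apart in the deposited tables by a barcode of 12 bases. The barcodes are shown for the gene-named elements on which the results turn, in capitals throughout because every base serves to identify, and the insert sequences themselves were not used here. The first 7 belong to elements recovered more from low-GFP cells, and the last 4 to elements recovered less.
Z600_z600-lacZ: CCATGAAGCTGT
h_HHRE: TGGTCCTATTGG
Ddc_-0.47: GCCTTCTGCCTT
tll_D3: GTGAAGCTTGGT
nerfin-1_fragment14: ATGGGCCTAAGA
ftz_5'delta276: CTATAGGACCGT
ple_995bp_wound_response_element: AGCAGGCAAGAA
ftz_-669_-386: ACTAGGCCGTCT
ple_WE1: ACCGTCTTAGCA
bib_5924: TTGCCTGCCTGG
ss_P732: AGAAGTCTTGGG
Any pair of barcodes in the pool differed in at least 3 bases. The median GC content of the barcodes was 50% for elements called higher, 54.2% for elements called lower and 50% for all elements tested.

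Low-GFP libraries held between 4180158 and 5443087 read 1 counts and CD2- libraries between 3497557 and 5934098. A count of 0 therefore allowed up to 0.640 to 1.71 CPM in a low-GFP library and up to 0.399 to 0.755 CPM in a CD2- library, where CPM is counts scaled to a common library size with TMM factors, which corrects library totals for a few dominant elements. The reads carry no molecular identifiers, so these floors cover counting error only and reads are not separate molecules. Libraries varied widely: log2 CPM correlated at 0.382 to 0.758 across elements within the low-GFP group, at 0.282 to 0.706 within the CD2- group, and at 0.260 to 0.657 between groups. Each low-GFP library was also compared with the 3 CD2- libraries of its own experiment. It deviated from its group most like the library of its own day on 6 of 6 days, at correlations of 0.140 to 0.278. The low-GFP library of day 4 stood apart, with a TMM factor of 0.360 and 57.7% of its counts in its 10 most abundant elements. Among CD2- libraries, those of day 1 and day 6 detected the fewest elements, 324 and 316.

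Recovery from low-GFP mesodermal cells differed from recovery from CD2- cells for 76 of 358 tested elements, 21.2% of them, by the quasi-likelihood test of edgeR at an adjusted p under 0.05. Of these, 48 were higher in low-GFP cells (13.4% of those tested) and 28 lower (7.82%). The median log2 fold change of the elements called higher was 4.66 and none was under 1.83. The median of the elements called lower was -2.12 and none was above -1.19. Over all tested elements the median was -0.45, so the scaling places the typical element slightly below 0, and fold changes are best read against that value. The balance of directions depended on the scaling: total counts gave 36 higher and 47 lower with a median of -1.15, and DESeq2 size factors gave 51 higher and 17 lower with a median of -0.10. Without the low-GFP library of day 4 the counts were 42 and 26. Without the CD2- library of day 6 they were 51 and 16, and without all of day 3 or all of day 5 the lower calls numbered 17.

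Elements called higher made up 61.2% ± 10.3 (SD, n = 6) of all counts in low-GFP libraries, between 48.1% and 75.8%, against 9.40% ± 1.16 in CD2- libraries. Elements called lower made up 3.85% ± 1.71 against 22.9% ± 1.91. These shares describe elements that were chosen on the same counts and were not tested. In CD2+ libraries the shares were 11.0% ± 1.92 and 22.7% ± 1.56, close to those of CD2- libraries. All of the 10 most abundant elements of low-GFP cells were called higher. Of the 10 most abundant elements of CD2- cells, 4 were called lower and 0 higher, and the lists had 0 elements in common.

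**Figure D1:**
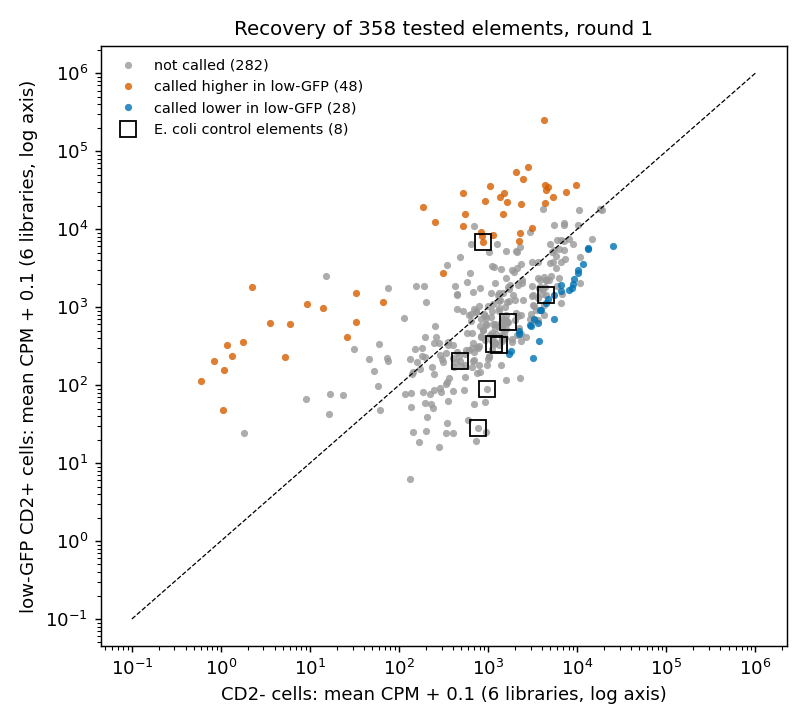
Mean CPM in 6 CD2- libraries (x axis) against mean CPM in 6 low-GFP CD2+ libraries (y axis) for the 358 tested elements, both on log axes after adding 0.1, with the dashed line at equal recovery. The 48 elements called higher include a group under 20 CPM in CD2- cells, all 28 called lower lie at 1000 CPM or more there, and 7 of 8 E. coli controls lie below the line.

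The sign was then followed day by day. Of the 48 elements called higher, 44 were higher on all 6 days and in 33 the low-GFP and CD2- values did not overlap. Of the 28 called lower, 25 were lower on all 6 days and 12 did not overlap. Since the calls rest on these same counts, this is a description. Over all tested elements, 58 were higher and 40 lower on all 6 days, and non-overlap occurred for 37 with low-GFP above (10.3%) and 14 with low-GFP below (3.91%). The 2 directions also differed in CD2- level, in part by construction. An element nearly absent from CD2- cells could be called only higher, and it passed the read filter only through libraries where it was higher. The median CD2- level was 849 CPM among elements called higher, 5092 CPM among those called lower and 1161 CPM over all tested. In 13 elements called higher the CD2- mean was under 20 CPM, and in 21 it was 1000 CPM or more.

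The largest fold changes belonged to elements that were nearly absent from CD2- libraries. The rarest of them passed the read filter only through the low-GFP libraries. They could therefore come out only as higher, and their rank is a description. Z600_z600-lacZ carries regulatory DNA of Z600, an early zygotic gene that holds back mitosis in the gastrulating mesoderm. It ranged from 468 over a median of 1938 to 3048 CPM in low-GFP libraries and from 0 over 1.04 to 6.46 CPM in CD2- libraries. Every low-GFP library lay far above every CD2- library, and the log2 fold change was 10.29 (adjusted p = 0.000119 in edgeR, SE 1.43). The SE here is the size of the change over the square root of the F statistic, so it restates the test. In CD2+ libraries, the element was also rare, at 2.82 CPM on average.

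The same pattern held for vas_construct16, from the gene of the germ line RNA helicase Vasa. It ran from 93.6 over 222 to 435 CPM in low-GFP cells and from 0.360 over 1.14 to 2.39 CPM in CD2- cells, a log2 fold change of 7.70 (adjusted p = 0.000401 in edgeR, SE 1.32). h_HHRE, from hairy, a pair-rule gene that encodes a Groucho-recruiting repressor, ran from 267 over 713 to 776 CPM against 1.26 over 3.64 to 5.28 CPM. The groups did not overlap for either element. The log2 fold change of h_HHRE was 7.48 (adjusted p = 0.000206 in edgeR, SE 1.13). Sox15_regionB, from a gene of the Sox family of transcription factors, ran from 20.6 over 66.5 to 333 CPM against 0 over 0.242 to 1.92 CPM. Its log2 fold change of 7.74 (adjusted p = 0.0012 in edgeR, SE 1.48) rested on 15 reads in all CD2- libraries together. CG4364_upstreamCRM showed values from 274 over 1140 to 2169 CPM against 3.52 over 6.62 to 16.6 CPM, a log2 fold change of 7.03 (adjusted p = 0.000249 in edgeR, SE 1.10).

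Elements of enzyme genes were among the highest as well. Ddc_-0.47 carries DNA upstream of dopa decarboxylase, which makes dopamine for neurons and for hardening cuticle. It was even across days, at 780, 956, 1318, 1017, 818 and 1005 CPM on days 1 to 6 in low-GFP cells, against 11.0, 23.4, 15.8, 10.1, 21.4 and 2.26 CPM in CD2- cells. Its lowest low-GFP library was far above its highest CD2- library, and the log2 fold change was 6.13 (adjusted p = 0.000401 in edgeR, SE 1.04). Est-6_D-511, from the gene of a carboxylesterase, ran from 207 over 368 to 1251 CPM against 1.98 over 5.42 to 11.0 CPM, a log2 fold change of 6.68 (adjusted p = 0.000271 in edgeR, SE 1.07).

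Repressor-bound and chromatin-named regions completed the top of the order. DHS+K27me3_CtBPoverlap_2267, named for open chromatin with H3K27me3 that overlaps CtBP binding, ran from 171 over 307 to 626 CPM against 0.142 over 1.14 to 5.05 CPM, a log2 fold change of 8.93 (adjusted p = 0.000566 in edgeR, SE 1.59). CtBP region_4530 ran from 173 over 297 to 509 CPM against 0.219 over 0.899 to 2.13 CPM, a log2 fold change of 8.38 (adjusted p = 0.000246 in edgeR, SE 1.29). Groucho region_481 ran from 53.3 over 109 to 519 CPM against 0 over 0.797 to 1.06 CPM, a log2 fold change of 7.85 (adjusted p = 0.000441 in edgeR, SE 1.36). None of these 3 overlapped between groups. Over the 13 elements under 20 CPM in CD2- cells, the 6 CD2- libraries together held between 15 and 471 reads per element, with a median of 61, and the 6 low-GFP libraries between 1222 and 36093.

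A pair of elements with large fold changes was less even. Groucho region_287 had the highest log2 fold change of all, 10.60 (adjusted p = 0.013 in edgeR, SE 2.88), but the ratio of its mean CPM was only 3.14 on the log2 scale. In low-GFP cells it gave 5507, 1965, 6215, 2416, 20.9 and 390 CPM on days 1 to 6, and in CD2- cells 1.68, 206, 1671, 0.142, 0.180 and 0 CPM. The groups overlapped, and the log2 fold change was 12.83 in experiment 2 and 2.62 in experiment 1 (edgeR adjusted p = 0.553 for the difference, not called). Its call was lost without day 4, day 5 or day 6, at an adjusted p of up to 0.0795. Without the experiment term its log2 fold change was 3.14 (edgeR adjusted p = 0.453), and with the 12 compared libraries alone it was 7.59 (edgeR adjusted p = 0.0808). tll_D3, from the terminal gap gene tailless, ran from 10053 over 16470 to 40103 CPM in low-GFP cells, while the CD2- libraries gave 9.58, 321, 1.33, 2.98, 767 and 0 CPM. The groups did not overlap, and the log2 fold change was 6.83 (adjusted p = 0.0295 in edgeR, SE 2.14), or 11.44 with collection day as a block. Against CD2+ cells the log2 fold change was 5.32 (adjusted p = 0.0708). The call of tll_D3 was lost without day 1 or day 4, at an adjusted p of up to 0.0728, and without the CD2- library of day 3 or of day 4 alone, at up to 0.0506.

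**Figure D2:**
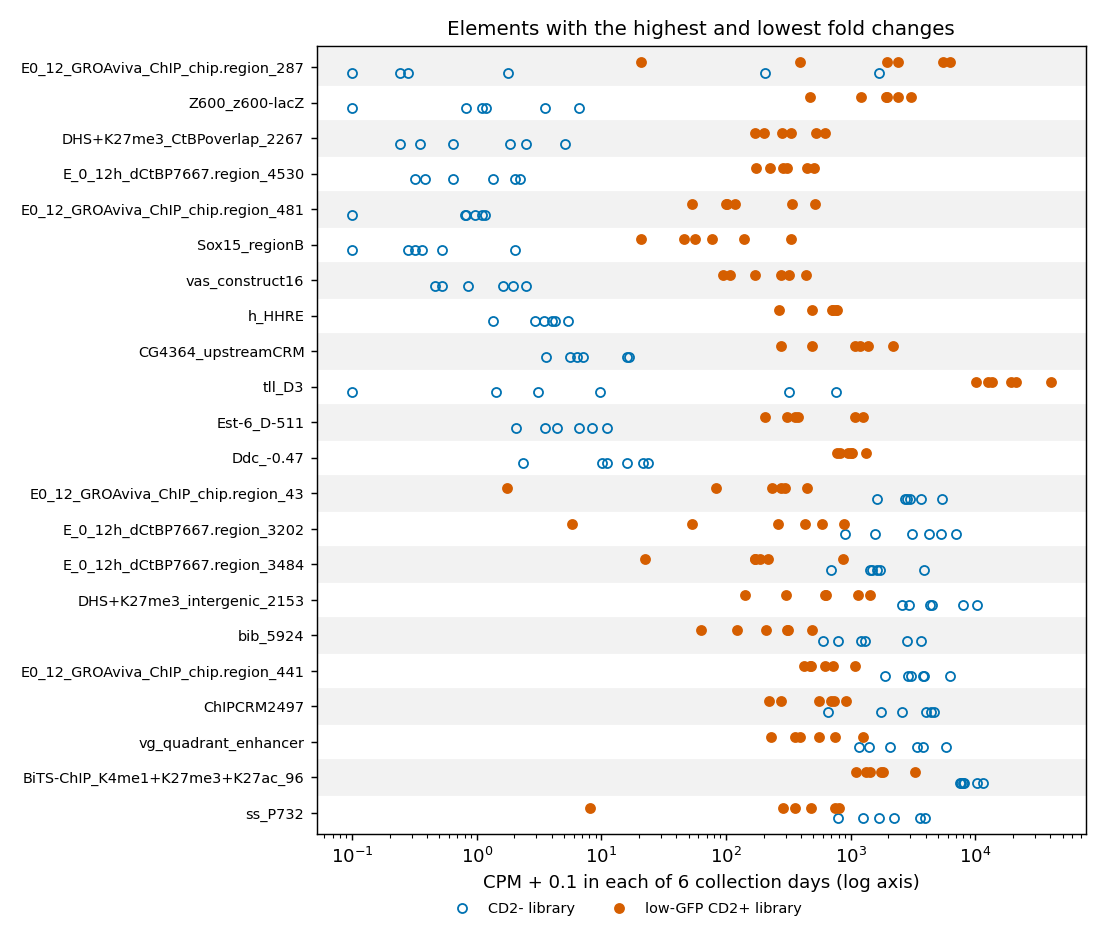
CPM, after adding 0.1, on a log axis for the 12 elements with the highest and the 10 with the lowest fold changes among those that moved one way on all 6 days. Filled points are the 6 low-GFP CD2+ libraries and open points the 6 CD2- libraries; the groups are separated in 11 of the top 12 elements, with Groucho region_287 the exception, and in 6 of the bottom 10.

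The elements that dominated low-GFP libraries had been present in CD2- cells as well. nvy_CRM100, from nervy, which encodes a chromatin corepressor of the ETO family, made up 14.8% ± 7.02 (SD, n = 6) of low-GFP counts and 0.534% ± 0.374 of CD2- counts. Its CPM in low-GFP cells ran from 53156 over 222462 to 666617, and in CD2- cells from 169 over 4088 to 9003. The groups were far apart, with a log2 fold change of 5.91 (adjusted p = 0.000119 in edgeR, SE 0.81). CtBP region_707 rose from 0.351% ± 0.250 to 3.91% ± 1.80 of counts, with a log2 fold change of 4.76 (adjusted p = 0.00181 in edgeR, SE 0.97). nerfin-1_fragment14, from the gene of a zinc finger protein of neuronal precursors, rose from 0.251% ± 0.0973 to 3.20% ± 1.90, with a log2 fold change of 4.55 (adjusted p = 0.00252 in edgeR, SE 0.96). Neither of those 2 overlapped between groups.

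The insulator ClassI_ins_196 ran from 5260 over 26160 to 156871 CPM in low-GFP cells and from 1.68 over 2006 to 6989 CPM in CD2- cells. Its groups overlapped. The log2 fold change was 3.96 (adjusted p = 0.0375 in edgeR, SE 1.31). The call was lost with collection day as a block, at an adjusted p of 0.1003, and without day 2, 4 or 5, at up to 0.162. gsb_fragIV, from the segment polarity gene gooseberry, began high, at 4207 over 9993 to 15798 CPM in CD2- cells, and reached 15594 over 24073 to 109404 CPM in low-GFP cells. It was higher on 6 of 6 days with overlapping groups, by 1.89 (adjusted p = 0.0289 in edgeR, SE 0.59) on the log2 scale. The gsb_fragIV call was lost without day 1, 2, 4 or 5, at an adjusted p of up to 0.079. Without the low-GFP library of day 4 its log2 fold change was 1.13 (edgeR adjusted p = 0.112), and with total counts as the scaling it was 0.83 (edgeR adjusted p = 0.195).

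Among called elements that were lower on all 6 days, the lowest fold change belonged to Groucho region_43, which stood at 1.65, 233, 449, 82.3, 295 and 275 CPM on days 1 to 6 in low-GFP cells against 5398, 2820, 3009, 2736, 1620 and 3656 CPM in CD2- cells. The groups did not overlap, and the log2 fold change was -3.84 (adjusted p = 0.00301 in edgeR, SE 0.84). DHS+K27me3_intergenic_2153 ran from 141 over 627 to 1436 CPM against 2583 over 4403 to 10376 CPM, a log2 fold change of -2.80 (adjusted p = 0.00248 in edgeR, SE 0.59). Groucho region_441 ran from 424 over 554 to 1076 CPM against 1882 over 3423 to 6313 CPM, a log2 fold change of -2.53 (adjusted p = 0.00633 in edgeR, SE 0.62). Both were without overlap. With collection day as a block and the 12 compared libraries alone, the call of Groucho region_43 was lost (log2 fold change -3.92, edgeR adjusted p = 0.0676). For Groucho region_441 the CD2+ level lay between the others, at 1530 CPM on average, and against CD2+ cells its log2 fold change was -1.27 (adjusted p = 0.153).

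The lowest 10 held 3 elements named after genes. bib_5924 derives from big brain, a membrane protein gene of neurogenesis. It ran from 62.3 over 259 to 492 CPM in low-GFP cells and from 602 over 1253 to 3637 CPM in CD2- cells, without overlap, a log2 fold change of -2.78 (adjusted p = 0.0083 in edgeR, SE 0.70). Its call was lost without day 4, at an adjusted p of 0.063, and with the day block in the 12 compared libraries, at 0.183. vg_quadrant_enhancer, from the wing gene vestigial, ran from 230 over 474 to 1260 CPM against 1168 over 2731 to 5806 CPM, a log2 fold change of -2.44 (adjusted p = 0.00607 in edgeR, SE 0.59). ss_P732, from spineless, a regulator of antenna and distal leg, ran from 8.00 over 417 to 811 CPM against 795 over 1956 to 3909 CPM. Its groups just overlapped, its log2 fold change was -2.28 (adjusted p = 0.0289 in edgeR, SE 0.71), and the call was lost without day 1, 2, 3 or 5, at up to 0.0871. With the day block in the 12 compared libraries its adjusted p was 0.172, and with DESeq2 size factors 0.0727.

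The other members of the lowest 10 were BiTS-ChIP_K4me1+K27me3+K27ac_96, ChIPCRM2497 and CtBP region_3484 and region_3202. BiTS-ChIP_K4me1+K27me3+K27ac_96, named for histone marks, fell from 7544 over 7978 to 11507 CPM in CD2- cells to 1103 over 1581 to 3282 CPM in low-GFP cells without overlap, by 2.33 on the log2 scale (adjusted p = 0.00039 in edgeR, SE 0.39). ChIPCRM2497 fell by 2.44 (adjusted p = 0.00599 in edgeR, SE 0.59). The CtBP pair was fragile: region_3202 had a log2 fold change of -3.30 (adjusted p = 0.0435 in edgeR, SE 1.13), which became an adjusted p of 0.0524 with collection day as a block and whose call was lost on leaving out any 1 of days 1 to 5. CtBP region_3484 had a log2 fold change of -2.87 (adjusted p = 0.0299 in edgeR, SE 0.91) and lost its call without day 1, 3, 4, 5 or 6. The highest adjusted p on leaving out a day was 0.139 for region_3202 and 0.087 for region_3484.

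Of the 5 elements called lower that were most abundant in CD2- cells, ChIPCRM5432 ranked first, with 3.11% ± 0.571 (SD, n = 6) of CD2- counts and 0.472% ± 0.210 of low-GFP counts. Its CPM ran from 19192 over 24856 to 31230 in CD2- cells and from 4000 over 5514 to 9907 in low-GFP cells, and the log2 fold change was -2.06 (adjusted p = 0.000202 in edgeR, SE 0.30). Dll_215, from the limb gene Distal-less, BiTS-ChIP_K4me1+K27me3+K27ac_246 and mib2_FCenhancer had log2 fold changes of -1.25 (adjusted p = 0.0262), -1.19 (adjusted p = 0.0162) and -1.75 (adjusted p = 0.0483) by edgeR. mib2 encodes a ubiquitin ligase of muscle founder cells and myotubes. Each of these 3 calls was lost on leaving out a day: Dll_215 without day 1, 3 or 5, at up to 0.142, BiTS-ChIP 246 without day 1 or 3, at up to 0.124, and mib2_FCenhancer on leaving out any 1 day except day 4, at up to 0.201. The call of BiTS-ChIP 246 was also lost without the CD2- library of day 6 alone, at 0.117, and that of mib2_FCenhancer with collection day as a block, at 0.1003.

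The limit of calling fell between DHS+K27me3_one-hit_202, just inside at an edgeR adjusted p of 0.0485 (log2 fold change -2.15), and CtBP region_2952, just outside at 0.0538 (log2 fold change -1.41). The former lost its call on leaving out any 1 of the 6 days. Large fold changes were not always called: hb_matDm0.5-lacZ (8.03), ct_340 (-9.55) and the control Ecoli_control15 (-10.0), chosen after their values were seen, missed the threshold. Ecoli_control15 was at 3555, 0, 0, 0, 349 and 712 CPM in CD2- cells on days 1 to 6 and at 0.550, 0, 0, 0.571, 165 and 1.52 CPM in low-GFP cells, a presence that came and went between days in both sorts.

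Scaling moved some of the weaker calls. With total counts the calls of ClassI_ins_196, hkb_0.6kbRIRV and ac_0.8 were lost as well as that of gsb_fragIV, at edgeR adjusted p values of 0.0755, 0.0874 and 0.0591. With scaling on the E. coli elements those of tll_D3, hkb_0.6kbRIRV and ple_WE1 were lost, at 0.054, 0.054 and 0.0582. In low-GFP cells the E. coli counts came largely from Ecoli_control22, a control that was itself called higher. Of the calls already described as lost on leaving out a day, DESeq2 size factors ended those of Dll_215 (0.111), BiTS-ChIP 246 (0.144), mib2_FCenhancer (0.138) and CtBP region_3202 (0.083). The day block in the 12 compared libraries ended those of Dll_215 (0.249), BiTS-ChIP 246 (0.112), mib2_FCenhancer (0.274) and ems_ems_ARFE-subA (0.154). Some calls held while the value moved. With total counts the log2 fold change of oc_otd-186 was 1.11 (edgeR adjusted p = 0.0312), that of CAD2_Meso-CRM-965 was 1.56 (edgeR adjusted p = 0.0244), that of Dll_215 was -1.93 (edgeR adjusted p = 0.0026) and that of BiTS-ChIP 246 was -1.79 (edgeR adjusted p = 0.00246).

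The gene-named elements were grouped by the biology of their genes. Pair-rule and segment polarity genes divide the embryo into segments, and of 22 tested elements of this list 5 were higher (22.7%, beside 13.4% of all tested elements) and 2 lower (9.09%, beside 7.82%), with a median log2 fold change of 0.05 beside -0.45 over all tested elements. ftz_5'delta276, from the pair-rule gene fushi tarazu, ran from 7055 over 15263 to 24259 CPM in low-GFP cells and from 68.6 over 518 to 1093 CPM in CD2- cells, a log2 fold change of 4.90 (adjusted p = 0.000119 in edgeR, SE 0.66). Another piece of the same gene went the other way. ftz_-669_-386 ran from 518 over 1339 to 3568 CPM against 3449 over 5352 to 23205 CPM, a log2 fold change of -2.16 (adjusted p = 0.00958 in edgeR, SE 0.56), with 1 CD2- library far above the others. That call was lost without day 3, at an adjusted p of 0.0602, and without the CD2- library of day 6, at 0.0595.

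Gap, terminal and head genes pattern the early axis and the head. Of 19 tested elements 3 were higher (15.8%, beside 13.4% of all tested elements) and 1 lower (5.26%, beside 7.82%), with a median of -0.36. Besides tll_D3, oc_otd-186, from the head gap gene orthodenticle, rose without overlap from 4626 over 7055 to 10842 CPM in CD2- cells to 12386 over 23328 to 65416 CPM, a log2 fold change of 2.04 (adjusted p = 0.00414 in edgeR, SE 0.47). hkb_0.6kbRIRV, from the terminal gap gene huckebein, had a log2 fold change of 2.95 (adjusted p = 0.025 in edgeR, SE 0.89). Its call was lost without day 4, at 0.0881, and, at up to 0.0528, without the low-GFP library of day 2 or the CD2- library of day 4. ems_ems_ARFE-subA, from the head gap gene empty spiracles, was the member that fell, by 1.84 on the log2 scale (adjusted p = 0.0129 in edgeR, SE 0.50), and lost its call without day 1 or 2, at up to 0.0597.

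Ectodermal organ genes build trachea, denticles, eyes and appendages. Here 4 of 20 tested elements were higher (20%, beside 13.4% of all tested elements) and 5 lower (25%, beside 7.82%), with a median of -1.34. ovo_E2, from the gene of denticle formation, rose without overlap, from 19.0 over 31.3 to 54.3 CPM in CD2- cells to 278 over 683 to 1000 CPM, a log2 fold change of 4.28 (adjusted p = 0.00301 in edgeR, SE 0.93). ey_UE0.9, from the eye gene eyeless, rose by 3.43 (adjusted p = 0.00394 in edgeR, SE 0.78) on that scale. Those that fell were vg_quadrant_enhancer, ss_P732, Dll_215 and both trh elements called, trh_trh24 at -1.86 and trh_trh45 at -1.79 (edgeR adjusted p = 0.0483 and 0.0153). trachealess, their gene, specifies the tracheal placodes. The list took 8.13% ± 0.887 of CD2- counts and 2.79% ± 0.762 of low-GFP counts.

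Notch pathway and proneural genes choose nerve cell precursors. The list, which also holds nvy, cas, dap and repo but neither bib nor nerfin-1, had 16 tested elements with 2 higher (12.5%, beside 13.4% of all tested elements), 0 lower (beside 7.82%) and a median of 0.36. It took 19.8% ± 7.19 of low-GFP counts against 5.14% ± 1.25 of CD2- counts, most of the former being nvy_CRM100. E(spl)_m8-0.46 carries DNA of a Notch target that represses proneural genes. It ran from 3579 over 23322 to 77836 CPM in low-GFP cells and from 0.755 over 375 to 1178 CPM in CD2- cells without overlap, a log2 fold change of 6.04 (adjusted p = 0.00939 in edgeR, SE 1.56). Of 8 tested elements of neuroectodermal dorsoventral genes, 1 was higher (12.5%, beside 13.4% of all tested elements) and 0 lower (beside 7.82%), with a median of 1.81. The element called was ac_0.8, from the proneural gene achaete, at 5.49 (adjusted p = 0.0331 in edgeR, SE 1.77). The ac_0.8 call was lost on leaving out any 1 of days 1 to 5, at up to 0.0756.

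Enzyme and pigment genes gave 4 higher (30.8%, beside 13.4% of all tested elements) and 2 lower (15.4%, beside 7.82%) of 13 tested elements, with a median of 0.20. ple encodes tyrosine hydroxylase, the first enzyme of dopamine synthesis, and its elements split. ple_995bp_wound_response_element ran from 11194 over 21389 to 55722 CPM in low-GFP cells and from 8.14 over 1532 to 2217 CPM in CD2- cells, a log2 fold change of 4.29 (adjusted p = 0.0014 in edgeR, SE 0.83). ple_WE1 ran from 1293 over 3692 to 4862 CPM against 6787 over 11377 to 15135 CPM, a log2 fold change of -1.71 (adjusted p = 0.00355 in edgeR, SE 0.38). Neither overlapped between groups. Of 4 tested elements of germ line and cell cycle genes, Z600_z600-lacZ and vas_construct16 were the 2 called, both higher (50%, beside 13.4% of all tested elements). In CD2- cells they averaged only 2.12 and 1.22 CPM and passed the read filter only through the low-GFP libraries. They could come out only as higher, so this share is no result about these genes.

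The list of mesoderm and muscle genes gave 0 calls. mib2_FCenhancer and CAD2_sns, named after muscle genes, are not in it, since mib2 was not listed and CAD2 elements form a class of their own. Of its 4 tested elements, 0 were higher and 0 lower, with a median of 0.73. Over all tested elements 13.4% were higher and 7.82% lower, so 0 calls among so few elements is no result about these genes. The nearest was tin_tin103A, from tinman, the heart and visceral muscle regulator, at 77.1 over 861 to 2542 CPM in low-GFP cells and 463 over 2555 to 15041 CPM in CD2- cells (log2 fold change -2.14, SE 1.06, edgeR adjusted p = 0.188). Dorsal ectoderm genes likewise gave 0 calls among 6 tested elements, with a median of 1.21, and the same limit holds for them. dpp_85.8MX, from the BMP ligand gene decapentaplegic, was higher on 6 of 6 days, but with a log2 fold change of 2.09, SE 1.37 and edgeR adjusted p = 0.336. In the separate libraries of round 2, low-GFP against CD2+ cells, it was called higher, at 1.60 (edgeR adjusted p = 0.0398).

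Elements named after corepressor binding were called at shares near or below those of all tested elements. Against 13.4% higher and 7.82% lower over all tested elements, 6 of 63 tested CtBP regions were higher (9.52%) and 2 lower (3.17%), with a median of -0.80. Of 32 Groucho regions, 4 were higher (12.5%) and 2 lower (6.25%), with a median of -0.64. Beside those named, CtBP region_2659 was higher on 5 days and at 0 in both sorts on day 4 (log2 fold change 6.71, edgeR adjusted p = 0.0153, lost without day 2 at 0.0511). Groucho region_286 and region_179 rose without overlap, by 5.08 (adjusted p = 0.00181 in edgeR, SE 1.03) and 3.06 (adjusted p = 0.00039 in edgeR, SE 0.52) on the log2 scale. Of 21 DHS+K27me3 elements, 3 were higher (14.3%, beside 13.4% of all tested elements) and 5 lower (23.8%, beside 7.82%), with a median of -0.38. DHS+K27me3_intergenic_1490a rose by 2.87 (adjusted p = 0.00301 in edgeR, SE 0.63), without overlap.

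Of 19 BiTS-ChIP elements 0 were higher (beside 13.4% of all tested elements) and 2 lower (10.5%, beside 7.82%), with a median of -0.86. Of 4 ChIPCRM elements 0 were higher (beside 13.4%) and 2 lower (50%, beside 7.82%). With so few elements, these counts are no result about either class. Of 15 insulators, a class of elements that block or bound enhancer action, 4 were higher (26.7%, beside 13.4% of all tested elements) and 0 lower (beside 7.82%), with a median of 0.00. Insulators took 10.1% ± 2.72 (SD, n = 6) of low-GFP counts and 5.23% ± 0.754 of CD2- counts. Of 15 CAD2 elements 3 were higher (20%, beside 13.4% of all tested elements) and 1 lower (6.67%, beside 7.82%), with a median of 0.36. CAD2_sns, named after sticks and stones, the adhesion gene of fusing myoblasts, ran from 8840 over 11843 to 17446 CPM in low-GFP cells and from 29.6 over 204 to 572 CPM in CD2- cells, a log2 fold change of 5.68 (adjusted p = 0.000262 in edgeR, SE 0.90). On average it stood at 51.8 CPM in CD2+ cells and 251 CPM in CD2- cells, a difference that was not called. CAD2_Meso-CRM-965 rose by 2.50 (adjusted p = 0.00301 in edgeR, SE 0.54) and CAD2_Ket-2 fell by 2.10 (adjusted p = 0.00181 in edgeR, SE 0.42) on the log2 scale.

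**Figure D3:**
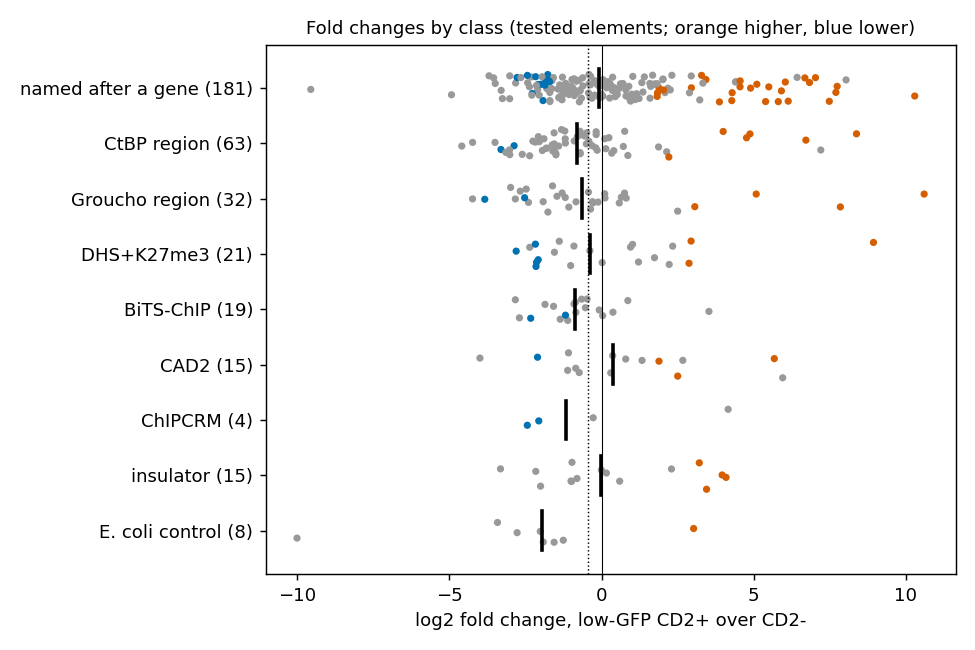
Log2 fold change of low-GFP CD2+ over CD2- cells for the tested elements of each class, 1 point per element (orange called higher, blue called lower, grey not called), with the class median as a black bar, 0 as a solid line and the median of all tested elements, -0.45, as a dotted line. Insulators reach 4 higher and 0 lower calls, BiTS-ChIP elements 0 higher and 2 lower, and the E. coli median lies at -1.96. Over all tested elements 13.4% were called higher and 7.82% lower.

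E. coli DNA served as a control that carries no fly regulatory sequence. Of its 12 elements, 8 were tested, and 7 of them lay below 0, with a median of -1.96 and all but 1 at or below -1.26. Of the 8 tested controls, 1 was called higher (12.5%, beside 13.4% of all tested elements) and 0 lower (beside 7.82%). The exception, Ecoli_control22, was the control called, at 3.02 (adjusted p = 0.00748 in edgeR, SE 0.75). It gave 3995, 4258, 3964, 2183, 13724 and 12479 CPM on days 1 to 6 in low-GFP cells and 94.3, 941, 83.9, 1309, 1464 and 1381 CPM in CD2- cells, without overlap. Against CD2+ cells its log2 fold change was 1.83 (adjusted p = 0.0896). Of the elements called higher, 37 exceeded this control. Of the 28 called lower, 19 lay below the E. coli median, while the other 9 fell no more than the typical control. A change of scaling shifts all elements by about the same amount, so it could hardly change the order of the E. coli median and the median of all elements. The E. coli median was -1.60 with DESeq2 size factors, where all elements stood at -0.10. It was -2.52 with total counts against -1.15, and -1.66 with scaling on the E. coli elements against -0.38. In low-GFP cells Ecoli_control22 took 0.564% of counts of the 0.797% held by all E. coli elements, against 0.108% of 1.39% in CD2- cells. In low-GFP cells that scaling therefore rested largely on the control called higher.

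Fold changes of different elements of a gene spread widely for some genes and little for others. Of 6 tested elements of h, 2 were higher and the log2 fold changes ran from -1.96 to 7.48. The 4 elements of Ddc ran from -1.84 to 6.13 and those of tll from -0.43 to 6.83, with 1 higher in each. Of the 4 nerfin-1 elements, 1 was higher and the others lay at -0.09 or below. For e, the pigment gene ebony, 1 of 5 was higher (e_coreAbdominalCRE, 1.83) and 1 lower (e_A.2, -1.77). The 3 ct elements spanned the widest range, from -9.55 to 5.10, with 1 higher. The range was narrow for other genes: the 5 elements of cas, a gene of late neuroblasts, ran from -0.23 to 0.96, the 4 of dpp from 0.80 to 2.09 and the 3 of ss from -2.28 to -1.70. Pairs were close for ovo (2.95 and 4.28), nkd (-2.65 and -2.43) and Kr (-1.28 and -1.13). They were far apart for Sox15 (-0.93 and 7.74), ftz (-2.16 and 4.90) and tin (-2.14 and 1.41). Differences between elements of a gene were not tested. Over all tested elements 13.4% were higher and 7.82% lower, so 1 or 2 calls among so few elements are no result about a gene. The highest elements of h, Ddc and Sox15 were nearly absent from CD2- cells, at means of 3.46, 14.0 and 0.501 CPM. The lowest ct element, ct_340, was not called.

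**Figure D4:**
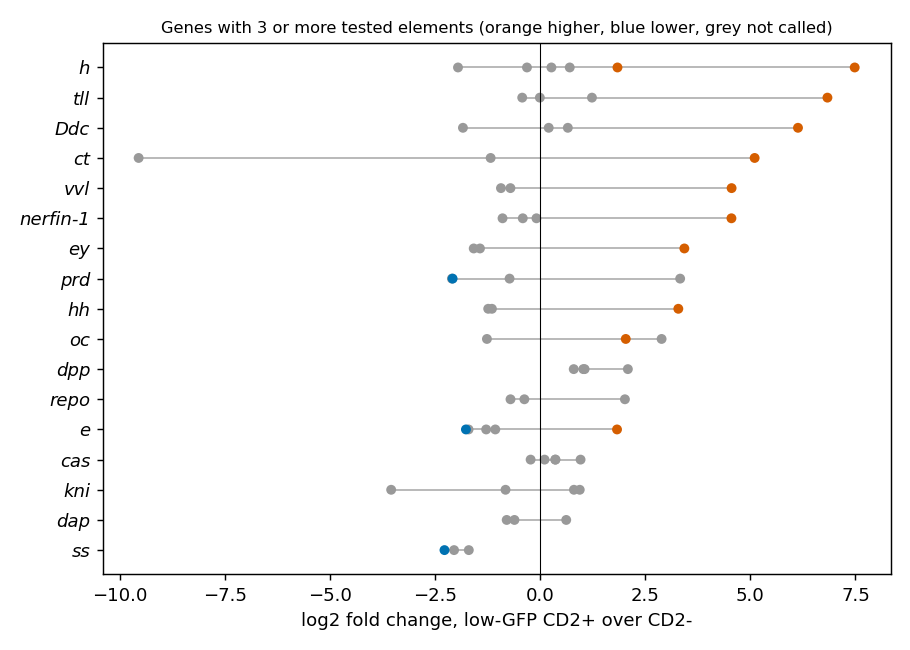
Log2 fold change of low-GFP CD2+ over CD2- cells for genes with 3 or more tested elements, 1 point per element and a line over each gene's range. The elements of h, Ddc and ct spread over 7.97 units or more, while those of cas and ss stay within 1.19. The highest h and Ddc elements were nearly absent from CD2- cells, and the lowest ct element was not called.

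The make-up of the libraries was compared day by day. In low-GFP libraries 360 ± 9.15 (SD, n = 6) elements were detected and in CD2- libraries 345 ± 20.2, higher on 4 of 6 days (exact two-sided sign-flip test over days, p = 0.3125). The 10 most abundant elements took 42.2% ± 9.63 of counts against 21.3% ± 3.33, higher on 6 of 6 days. The effective number of elements, the number of equally common elements that would give the same Shannon diversity, was 77.3 ± 29.1 against 149 ± 22.5, lower on 6 of 6 days. Both of these gave p = 0.03125 in the exact test, the smallest that 6 days allow, and 0.0625 after adjustment over 4 measures. E. coli elements took 0.797% ± 0.565 of counts against 1.39% ± 0.701, lower on 5 of 6 days (exact p = 0.09375, adjusted 0.125). The differences ran the same way in both experiments for each of the 4 measures: the share of the top 10 differed by 18.8 percentage points in experiment 1 and 23.0 in experiment 2.

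**Figure D5:**
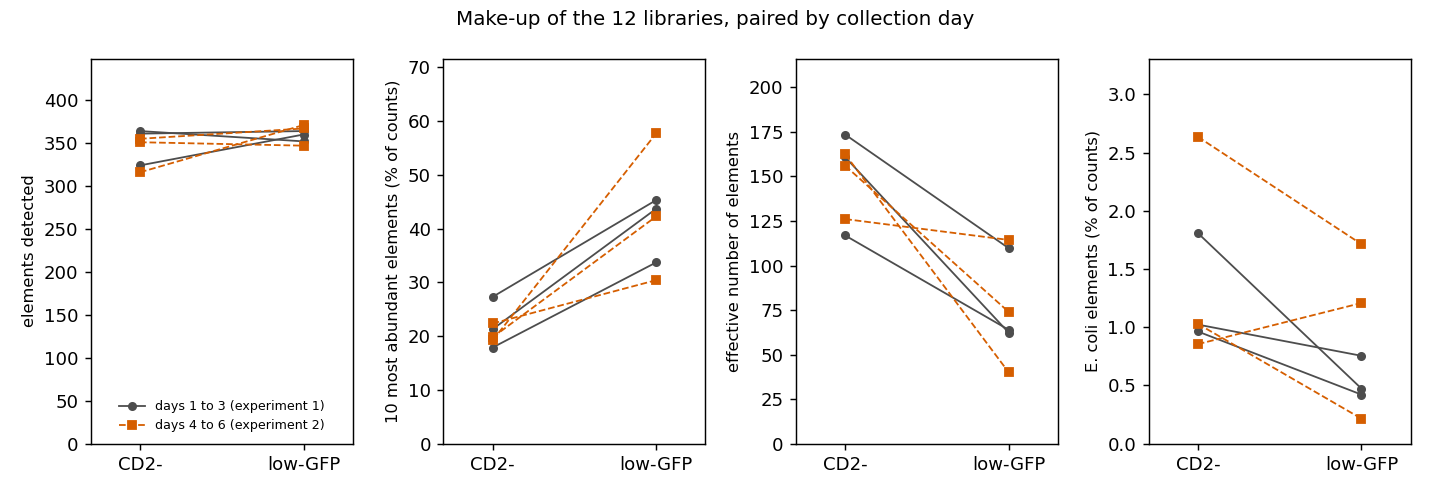
Number of elements detected, share of counts in the 10 most abundant elements (percent), effective number of elements and share of counts in E. coli elements (percent) in each library, with lines joining the CD2- and the low-GFP library of a collection day (solid for experiment 1, dashed for experiment 2). The share of the top 10 is higher and the effective number lower in low-GFP cells on all 6 days, and the detected number runs between 316 and 371 throughout.

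Of the 576 elements, 235 were detected in all 12 libraries and 163 in none. No element was present in 6 libraries of one sort and absent from all of the other. Of the 218 elements left untested for low counts, 55 had at least 1 read in the 12 libraries, and their highest mean was 509 CPM in low-GFP cells and 363 CPM in CD2- cells.

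The CD2+ libraries were compared with each of the other sorts, and tissue and GFP level were not tested as causes. Comparing CD2+ with CD2- cells, edgeR called 0 of 358 elements, with 6 at an unadjusted p under 0.05. Given the wide spread between libraries, 0 calls does not show that these sorts were alike. Comparing low-GFP with CD2+ cells, which uses the same low-GFP libraries as the main comparison, edgeR called 74 of 358 (20.7%), 44 higher (12.3%) and 30 lower (8.38%). Side by side, the log2 fold change of Z600_z600-lacZ was 10.29 against CD2- cells and 9.70 against CD2+ cells, that of nvy_CRM100 5.91 and 5.0, and that of CAD2_sns 5.68 and 8.18. On the lower side, ChIPCRM5432 stood at -2.06 and -2.07 and ss_P732 at -2.28 and -3.08. gsb_fragIV and hkb_0.6kbRIRV, at 1.43 (adjusted p = 0.0895) and 2.26 (adjusted p = 0.079) against CD2+ cells, were called against CD2- cells and not against CD2+ cells. The share of elements called in one comparison and not in the other was not tested as a difference.

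Within experiments each named element that was called and could be fitted kept its direction, but few calls held. Most of these elements had the same sign on every day, so the kept direction was fixed in advance. Experiment 1 alone, with 3 days, gave 9 of 354 elements (2.54%), 7 higher and 2 lower. Experiment 2 alone gave 0 of 344 (0.0%), with 74 at an unadjusted p under 0.05. nvy_CRM100 had log2 fold changes of 5.33 and 6.23 in the experiments, ftz_5'delta276 of 4.12 and 5.34, and ChIPCRM5432 of -2.33 and -2.01. The test of the difference between experiments called 0 elements, with 14 at an unadjusted p under 0.05, of which 1, Groucho region_287, was among the 76 called. DESeq2 called 9 elements in that test.

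Round 2 was a separate pool of 188 elements sorted in the same way, with CD2+ cells as the control in place of CD2- cells. It shared 173 elements with round 1. Of these, 146 were untested in round 1, 119 of them being undetected in the 12 libraries, and 27 were tested. In both rounds 25 elements were tested. Of the 48 elements called higher in round 1, 6 were in the round 2 pool, and 2 of these were called higher there. oc_otd-186 rose from 13004 ± 4549 CPM (SD, n = 6) in CD2+ cells to 80786 ± 25596 CPM in low-GFP cells of round 2, a log2 fold change of 2.63 (edgeR adjusted p = 5.61e-05). gsb_fragIV rose from 16292 ± 6713 to 58751 ± 23494 CPM, by 1.84 (edgeR adjusted p = 0.00193). The others were hkb_0.6kbRIRV at 2.83, e_coreAbdominalCRE at 1.49, CtBP region_3084 at 0.69 and Ecoli_control22 at -0.30, none of them called. Over the 155 elements tested in round 2, 14 were called higher (9.03%) and 8 lower (5.16%). Of the 19 elements tested in both rounds and not called in round 1, 3 were higher and 3 lower in round 2. None of the 28 elements called lower was in the round 2 pool.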

How the data were processed

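The authors deposited, for each library, counts of mapped reads per barcoded element, 1 table for read 1 and 1 for read 2, and read 1 counts were used. The submitters' processing notes name DESeq. Mapper, reference and build: not given in the sources used here. The files give no genome coordinates. Empty cells were read as 0. Groups and collection days came from the sample labels. Elements were tested with edgeR 4.0.16 in R 4.3.3 on all 18 round 1 libraries: filterByExpr at a minimum count of 10, TMM, terms for population and experiment in the quasi-likelihood model, and p-values adjusted by Benjamini-Hochberg over the 358 elements tested, called at an adjusted p under 0.05. The fitted biological coefficient of variation was 1.46. CPM values use TMM-scaled library sizes and can exceed raw shares, while percentages of counts are unscaled. Daily differences used a prior count of 2. Make-up of libraries was compared with exact sign-flip tests over 6 days. The scripts were tested on simulated data.

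Collection days pair the sorts, because the titles give the same date: deviations from the group means correlated at 0.140 to 0.278 (median 0.228) within 6 of 6 days, all above 0.1. The main fit has no block. Fits with collection day as a block, other scalings, no filter, read 2 counts, DESeq2 1.42.0, single experiments, and libraries or days left out were run as alternatives.

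The comparison, the gene lists and the naming rule were chosen with earlier results of these data known, and no list is independent evidence. The rule names the 12 highest and 10 lowest called elements with 1 sign on all 6 days, the 5 most abundant called in each direction, up to 3 called members per list by adjusted p or else the nearest, E. coli controls, and the elements next to the threshold. Gene symbols were read from element names, and 274 of 282 gene-named elements matched a symbol in the RefSeq table. List membership is by exact gene symbol.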

Additional observations from a re-analysis of the deposited data

Results flagged for a closer look

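Among 116 sets of 6 values, those of the named elements and of library make-up, 13 held a library far from the other 5 of its group (Dixon's ratio above 0.625). For elements the ratio was taken on log2 CPM. For independent sets of normal values, chance gives about 1 set in 20, but these sets share libraries, so that rate is only a guide. The 13 comprised 9 sets of CD2- libraries and 4 of low-GFP libraries.

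In the CD2- library of day 1, Groucho region_481 was at 0 (others 0.709 to 1.06 CPM), ClassI_ins_196 at 1.68 CPM (others 926 to 6989), hkb_0.6kbRIRV at 11.5 CPM (others 2266 to 14436) and ple_995bp_wound_response_element at 8.14 CPM (others 734 to 2217). On that day the CD2+ library gave 1293 CPM for ClassI_ins_196, 1121 for hkb_0.6kbRIRV and 274 for ple_995bp_wound_response_element, and Groucho region_481 was at 0 there too.

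In the CD2- library of day 6, nvy_CRM100 was at 169 CPM (others 2807 to 9003), CtBP region_707 at 3.27 CPM (others 1454 to 5348), E(spl)_m8-0.46 at 0.755 CPM (others 267 to 1178) and DHS+K27me3_intergenic_1490a at 180 CPM (others 970 to 1941). ftz_-669_-386 was high there, at 23205 CPM (others 3449 to 6832). The CD2+ library of day 6 gave 7189 CPM for nvy_CRM100, 542 for CtBP region_707, 1.58 for E(spl)_m8-0.46, 1106 for DHS+K27me3_intergenic_1490a and 14759 for ftz_-669_-386.

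In low-GFP libraries, Groucho region_43 was at 1.65 CPM on day 1 (others 82.3 to 449), ple_WE1 at 1293 CPM on day 3 (others 3640 to 4862), ss_P732 at 8.00 CPM on day 4 (others 287 to 811) and gsb_fragIV at 109404 CPM on day 4 (others 15594 to 31850). The CD2- libraries of those days gave 5398, 6787, 1697 and 15798 CPM for these elements in that order. The low-GFP library of day 4 had a TMM factor of 0.360, which raises all of its CPM values over its unscaled counts.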

How the results depend on the processing

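No named element that was called changed sign under any alternative run. Most of them had the same sign on every day, so leaving out days could hardly reverse it. The number of elements called lower, 28, was 17 with DESeq2 size factors, 18 with scaling on the E. coli elements and 47 with total counts. It was 17 with collection day as a replicate block in the 12 libraries alone, an alternative chosen after seeing the data. Experiment 1 alone gave 9 calls, 7 higher and 2 lower, and experiment 2 alone 0, 0 and 0. Leaving out 1 day gave 51 to 75 calls, 34 to 48 higher and 17 to 27 lower, and leaving out 1 library gave 64 to 79 calls, 39 to 51 higher and 16 to 31 lower, the 16 being without the CD2- library of day 6. The difference between experiments went from 0 calls by edgeR to 9 by DESeq2. With collection day as a replicate block in all 18 libraries 77 elements were called, 46 higher and 31 lower, and 43 of the 48 and 25 of the 28 remained. Among named elements the block ended the calls of CtBP region_3202, ClassI_ins_196 and mib2_FCenhancer and moved CtBP region_2952 past the threshold. Fits without the filter (85 calls), with read 2 counts (75), with DESeq2 (95), without the experiment term (65) and with the 12 libraries alone (61) stayed within 1.5 times the main count. Depth limits rare elements: a CD2- level near 1 CPM rests on a handful of reads.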
